A study of Mus musculus with 2 samples.

Results

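The genes described here encode the proteasome, its activators, its inhibitor and its assembly chaperones, and they were followed in the remote left ventricle of infarcted mice with and without NRK-2. Members were all genes whose symbol is Psm, a letter from a to g and a number, with reads summed per symbol, which gave 48 of the 24542 gene symbols in the deposited table, covering 58 of its 36780 transcripts. Of these, 47 had reads and entered the test, among 14466 genes tested in all. The first group was NRK-2 KO mice, which lack a kinase that makes nicotinamide mononucleotide from nicotinamide riboside and is encoded by Nmrk2, and the second was littermate Control mice. Both groups were male C57BL/6 animals whose proximal LAD coronary artery had been tied off permanently, and both were taken at 7 days. RNA came from remote LV tissue, with the fibrotic scar and the border zone left out, and how the NRK-2 allele was made is not stated in the labels. The labels list 1 sample per genotype, and the table holds 3 numbered libraries for each, named KO 1 to KO 3 and control 1 to control 3 after their labels. Since nothing states that these came from different animals, each p-value reflects the spread among libraries alone, and that spread may be technical.

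The proteasome is the main machine that cells use to degrade proteins tagged with ubiquitin. Its 20S core is a barrel of alpha rings, which form the gate, and beta rings, which carry the proteolytic sites, and the 19S cap binds, unfolds and feeds in substrates. Interferon induces a second set of catalytic beta subunits that replace the constitutive ones in the immunoproteasome, together with the PA28 alpha and beta activator, and in the heart the immunoproteasome is known mainly from infiltrating leukocytes and inflamed muscle.

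The promoters of 4 members are shown because the results below turn on them: Psme1 is the member that fell, Psme2 encodes its partner in the same ring, and Psmb8 and Psmb5 are the inducible and the constitutive form of a single catalytic position. Each run covers positions -150 to 25 around the RefSeq transcript start (build GRCm38.p6), where 1 is the first transcribed base, and that start is the start of the transcript with most reads in the deposited table. Capitals mark matches, on either strand, to an interferon response core (GAAA, any 2 bases, GAAA), a STAT core (TTCNNNGAA), an antioxidant response core (TGACNNNGC) or a CCAAT box.
Psme1, chr14:55578344-55578518, plus strand: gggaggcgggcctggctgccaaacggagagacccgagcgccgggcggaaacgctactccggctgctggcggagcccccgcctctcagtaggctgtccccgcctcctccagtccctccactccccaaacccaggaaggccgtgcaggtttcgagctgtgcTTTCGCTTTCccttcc
Psme2, chr14:55590997-55591171, minus strand: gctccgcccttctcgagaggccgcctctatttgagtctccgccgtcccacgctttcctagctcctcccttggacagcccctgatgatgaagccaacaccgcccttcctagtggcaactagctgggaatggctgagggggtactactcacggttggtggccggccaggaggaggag
Psmb8, chr17:34198045-34198219, plus strand: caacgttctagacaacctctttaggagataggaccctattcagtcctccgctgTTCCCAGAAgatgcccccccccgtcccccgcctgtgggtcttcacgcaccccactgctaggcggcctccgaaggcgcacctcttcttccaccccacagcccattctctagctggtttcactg
Psmb5, chr14:54617971-54618145, minus strand: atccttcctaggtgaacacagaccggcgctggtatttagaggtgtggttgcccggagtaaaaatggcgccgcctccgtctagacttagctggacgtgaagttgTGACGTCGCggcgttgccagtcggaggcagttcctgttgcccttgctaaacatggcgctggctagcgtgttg
The Psme1 run holds an interferon response core, read on the minus strand, at 10 to 19, the Psmb8 run a STAT core at -97 to -89, the Psmb5 run an antioxidant response core at -47 to -39, and the Psme2 run none of the 4 patterns. RefSeq promoters of 300 bases were found for 40 of the 48 members. Over them the interferon response core was found in 5 genes (12.5%, against 3.99% of all 27025 genes with a promoter), namely Psmb3, Psmd4, Psmd9, Psme1 and Psmg4. The antioxidant response core was found in 6 genes (15%, against 14% of all), Psmb5, Psmb6, Psmc6, Psmd9, Psmd12 and Psme4, the STAT core in 3 genes (7.5%, against 9.55%) and the CCAAT box in 14 (35%, against 41.1%). A match describes letters in this window and nothing more.

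The libraries held between 22377348 and 33086384 reads, and the members took 0.385% to 0.465% of them. Nmrk2, the targeted gene, checked the labels: it held 808, 9 and 0 reads in the libraries labelled KO 1, KO 2 and KO 3, against 308, 270 and 118 reads in control 1 to 3, so the library labelled KO 1 went against its label and every direction below rests in part on it. Cardiomyocyte markers (7 of 7 with a lower fitted level, none past the test, none at 0 in any library) summed to 33210, 19850 and 34010 CPM in KO 1 to 3 and to 64410, 60680 and 38420 CPM in control 1 to 3. CPM gives reads scaled by library total times TMM factor. Leukocyte markers (5 of 5 with a higher fitted level, none past the test, none at 0 in any library) summed to 326, 475 and 269 CPM in KO 1 to 3 and to 104, 170 and 560 CPM in control 1 to 3. The 4 B cell markers, of which Cd79a had 0 reads in control 2, summed to 5.91, 40.5 and 4.75 CPM in KO 1 to 3 and to 4.51, 2.79 and 212 CPM in control 1 to 3. Of 5 atrial markers Bmp10 had 0 reads throughout, and Myl7, which marks atrial muscle, stood at 127, 1.15 and 0.219 CPM in KO 1 to 3 and at 205, 162 and 0 CPM in control 1 to 3. Sln and Myl4 had the same 3 libraries highest, KO 1, control 1 and control 2. Nppa, of the same list and also known as a stress gene of the ventricle, ran otherwise, with 2419, 2350 and 3022 CPM in KO 1 to 3 and 442.5, 571.5 and 108 CPM in control 1 to 3, every library labelled KO above every control. Fibroblast markers (5 of 5 with a higher fitted level, median log2 fold change 1.24, none at 0 in any library) summed to 18010, 22010 and 16340 CPM in KO 1 to 3 and to 3531, 8842 and 8416 CPM in control 1 to 3. Of these, Postn, a gene of activated fibroblasts, rose, with 4473, 5165 and 5853 CPM in KO 1 to 3 and 362, 1254 and 543 CPM in control 1 to 3 (log2 fold change 2.84, edgeR quasi-likelihood adjusted p = 0.0338). The 3 erythroid markers, none past the test, summed to 83.2, 14.98 and 10.4 CPM in KO 1 to 3 and to 487, 686.5 and 22.9 CPM in control 1 to 3. Of these, Alas2 ran otherwise, at 26.3, 12.8 and 17.2 CPM in control 1 to 3. Control 3 thus stood apart from control 1 and control 2, with lower cardiomyocyte, atrial and summed erythroid markers and higher leukocyte markers. Results that depend on control 3 are given with and without it. In bulk tissue, fewer cells of a type and less RNA per cell cannot be told apart.

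The 14 constitutive subunits of the 20S core were all abundant, and their levels per transcript length lay within a narrow band. By mean FPKM over the 6 libraries (reads scaled to transcript length and library total, as deposited), they ran from 41.7 for Psma3 to 141 for Psmb7, with a median of 98.1. The order of the 14 was alike in the libraries, with a rank correlation between any pair of libraries from 0.881 to 0.978 over these genes, which are not independent replicates. The 6 ATPases of the 19S base, which unfold substrates, had a median of 70.4 FPKM and the 14 non-ATPase members of the 19S group 43.9 FPKM. The lowest of that group were Psmd10 (7.24 FPKM) and Psmd9 (5.21 FPKM), which serve as chaperones of base assembly. The inducible catalytic subunits lay lower, at 11.7 FPKM for Psmb9, 24.1 FPKM for Psmb8 and 34.4 FPKM for Psmb10, and the 4 assembly chaperones Psmg1 to Psmg4 lay between 6.62 and 18.9 FPKM.

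Members with a restricted tissue range were near or at 0. Psma8, the alpha subunit of the testis form, had 17, 28 and 26 reads in KO 1 to 3 and 22, 17 and 20 reads in control 1 to 3, a mean of 0.474 FPKM. Psmb11, the catalytic subunit of the thymic cortex, had 0 reads in all 6 libraries, which allows up to 3 reads or between 0.0840 and 0.147 CPM per library, for counting error only. At the other end by reads, which are not scaled to transcript length, was Psme4, which encodes the PA200 activator. It took 16.6%, 16.8% and 19.2% of all proteasome reads in KO 1 to 3 and 18.3%, 18.2% and 15.98% in control 1 to 3. Per transcript length Psme4 had a mean of 112 FPKM, below the 141 FPKM of Psmb7 and the 135 FPKM of Psmb4.

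**Figure D1:**
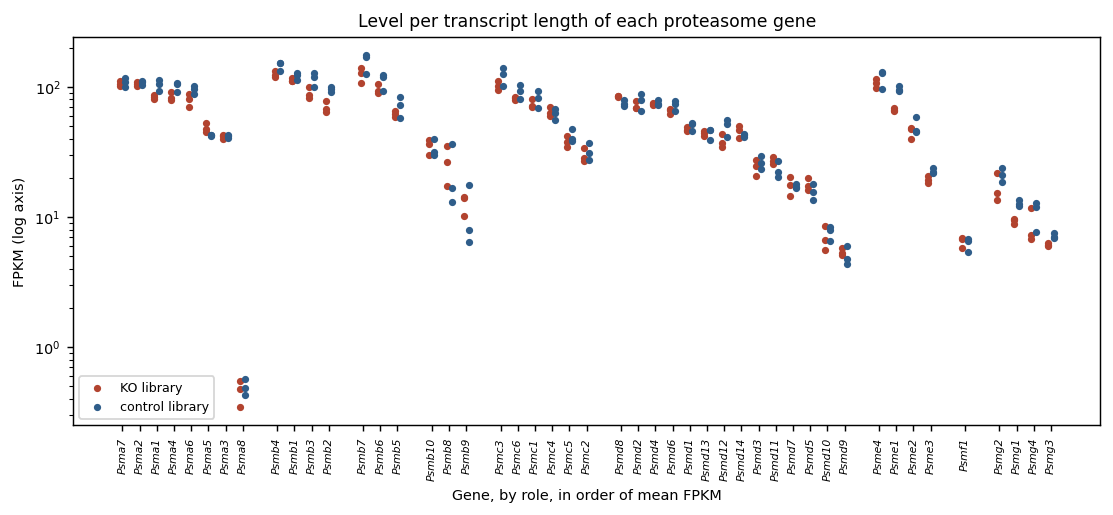
Deposited FPKM of the 47 proteasome genes with reads (log axis), in each library labelled KO (red, left) and control (blue, right), grouped by role and ordered by mean level. The constitutive 20S subunits lie between means of 41.7 and 141 FPKM, the inducible catalytic subunits between 11.7 and 34.4 FPKM, and Psma8 at 0.474 FPKM.

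Against this background a single member passed the test between genotypes. No proteasome gene rose and 1 fell, Psme1, by edgeR's quasi-likelihood test (Benjamini-Hochberg over all 14466 genes, threshold 0.05). Among all genes tested, 2.61% rose and 1.09% fell, and the single faller makes 2.13% of the 47 members. The fitted level was lower in libraries labelled KO for 41 of the 47 members (87.2%), against 49.0% of all genes tested. The median log2 fold change of the members, KO over control, was -0.23, against 0.01 over all genes tested, and 8 members (17%) had an unadjusted p under 0.05, a smaller share than the 25.9% of all genes tested.

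Psme1 encodes PA28 alpha, a subunit of the ring that caps the 20S core and is known for its part in making peptides for MHC class I. The table places it (gene ID 19186) at 55578494 to 55581527 of chromosome 14 in mm10. It stood at 67.0, 61.6 and 63.7 CPM in KO 1 to 3, against 101.5, 102.6 and 94.5 CPM in control 1 to 3. Every library labelled KO lay below every control library, and libraries of a genotype differed little, with a coefficient of variation of 4.27% in KO and 4.42% in control. The means were 64.1 ± 2.74 CPM in KO and 99.5 ± 4.40 CPM in control (SD, n = 3 libraries each), a fold of 0.644 (-0.64 on the log2 scale, SE 0.10, adjusted p = 0.0292 by edgeR's quasi-likelihood test). Control 3 sat with the other controls for this gene, and without it Psme1 still fell (log2 fold change -0.67, edgeR adjusted p = 0.0171). Without any other single library it did not pass, with edgeR adjusted p-values from 0.0970 to 0.143 and log2 fold changes from -0.67 to -0.61. Few genes passed in those fits, from 0.0204% to 0.597% of all genes, against 3.7% with all libraries. Without the library labelled KO 1 the log2 fold change was -0.67 (edgeR adjusted p = 0.1001).

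The other activators had lower fitted levels in KO without passing the test. Psme2 encodes PA28 beta, which forms a mixed ring with PA28 alpha. Its reads may in part belong to its copy Psme2b. Psme2 had 43.4, 40.3 and 35.5 CPM in KO 1 to 3, against 44.2, 45.0 and 49.7 CPM in control 1 to 3. The groups did not overlap, but the gap was narrow (log2 fold change -0.22, SE 0.12, edgeR quasi-likelihood adjusted p = 0.299). The deposited FPKM of Psme1 was 1.42, 1.40 and 1.64 times that of Psme2 in KO 1 to 3, against 2.10, 2.07 and 1.74 times in control 1 to 3, a comparison chosen after the values were seen and given without a test. Every ratio in KO was thus below every ratio in control, and the nearest libraries were KO 3 and control 3.

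Psme3 encodes PA28 gamma, the nuclear activator, and had 54.0, 45.4 and 50.8 CPM in KO 1 to 3, against 63.0, 69.4 and 54.8 CPM in control 1 to 3. Its groups did not overlap, with control 3 less than 1 CPM above KO 1 (log2 fold change -0.32, SE 0.13, edgeR quasi-likelihood adjusted p = 0.187). Psme4 had 684, 599 and 747 CPM in KO 1 to 3, against 933, 909 and 587 CPM in control 1 to 3. Control 3 was its lowest library of all, so the groups overlapped (log2 fold change -0.26, SE 0.22, edgeR adjusted p = 0.492). Psmf1, the PI31 protein first described as an inhibitor of the 20S core, had 20.4, 22.96 and 24.2 CPM in KO 1 to 3 and 25.7, 21.2 and 22.7 CPM in control 1 to 3, and these overlapped (log2 fold change -0.04, SE 0.13).

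**Figure D2:**
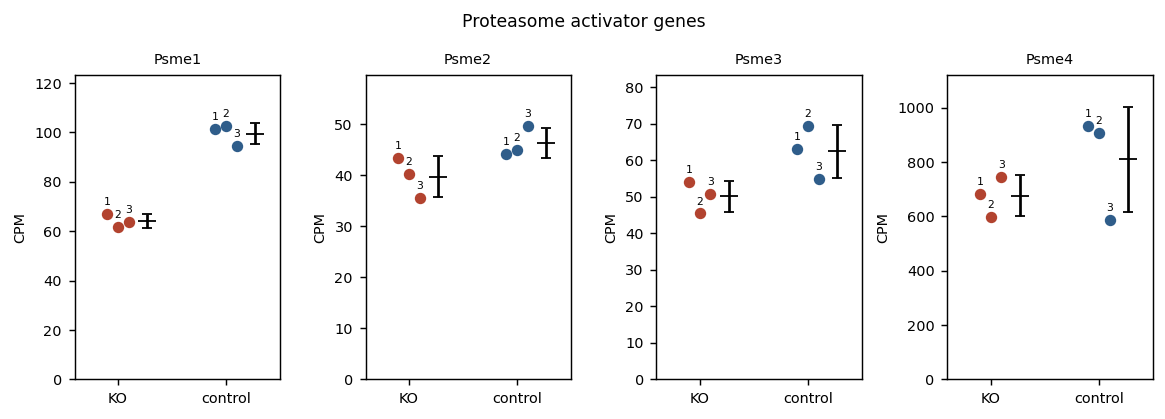
CPM of the 4 activator genes in each library labelled KO (red, left) and control (blue, right), with library numbers and mean ± SD at the side. Psme1 separates the genotypes (61.6 to 67.0 CPM in KO, 94.5 to 102.6 CPM in control), while for Psme4 control 3 lies below every library labelled KO.

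In the 20S core, 13 of the 14 constitutive subunits had lower fitted levels in KO and none passed the test. Among the alpha subunits, which form the outer rings and the gate, the lowest fold was that of Psma1, with 109, 95.04 and 105 CPM in KO 1 to 3 against 147, 159 and 110 CPM in control 1 to 3. Control 3 lay just above the KO libraries and far below the other controls (log2 fold change -0.43, SE 0.16, edgeR quasi-likelihood adjusted p = 0.153). The highest was Psma5, with 64.1, 54.6 and 54.9 CPM in KO 1 to 3 against 58.0, 57.2 and 49.0 CPM in control 1 to 3, and these overlapped (log2 fold change 0.08, SE 0.12).

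The structural beta subunits Psmb1 to Psmb4 line the inner rings and carry no proteolytic site in mammals. Psmb2 had 65.8, 51.2 and 57.9 CPM in KO 1 to 3, against 90.9, 94.0 and 72.7 CPM in control 1 to 3, without overlap (log2 fold change -0.56, SE 0.15, edgeR quasi-likelihood adjusted p = 0.0838). Psmb1 had the smallest difference of the 4, with 121, 109 and 115 CPM in KO 1 to 3 against 146, 143 and 111 CPM in control 1 to 3 (log2 fold change -0.22, SE 0.14). Control 3 lay within the range of the KO libraries for Psmb1.

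Each of the 3 constitutive catalytic subunits showed the same arrangement of libraries, with control 1 and control 2 above the rest and control 3 beside the KO libraries. Psmb5, which carries the chymotrypsin-like site, had 56.7, 47.8 and 53.7 CPM in KO 1 to 3, against 81.4, 70.0 and 47.8 CPM in control 1 to 3 (log2 fold change -0.33, SE 0.20). Psmb6, with the caspase-like site, had 108, 87.0 and 96.8 CPM in KO 1 to 3, against 141, 137 and 91.3 CPM in control 1 to 3 (log2 fold change -0.34, SE 0.19). Psmb7, with the trypsin-like site, had 136, 97.1 and 123 CPM in KO 1 to 3, against 184, 190 and 115.5 CPM in control 1 to 3 (log2 fold change -0.46, SE 0.23). Their groups overlapped, and edgeR's adjusted p-values were 0.343, 0.309 and 0.253.

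**Figure D3:**
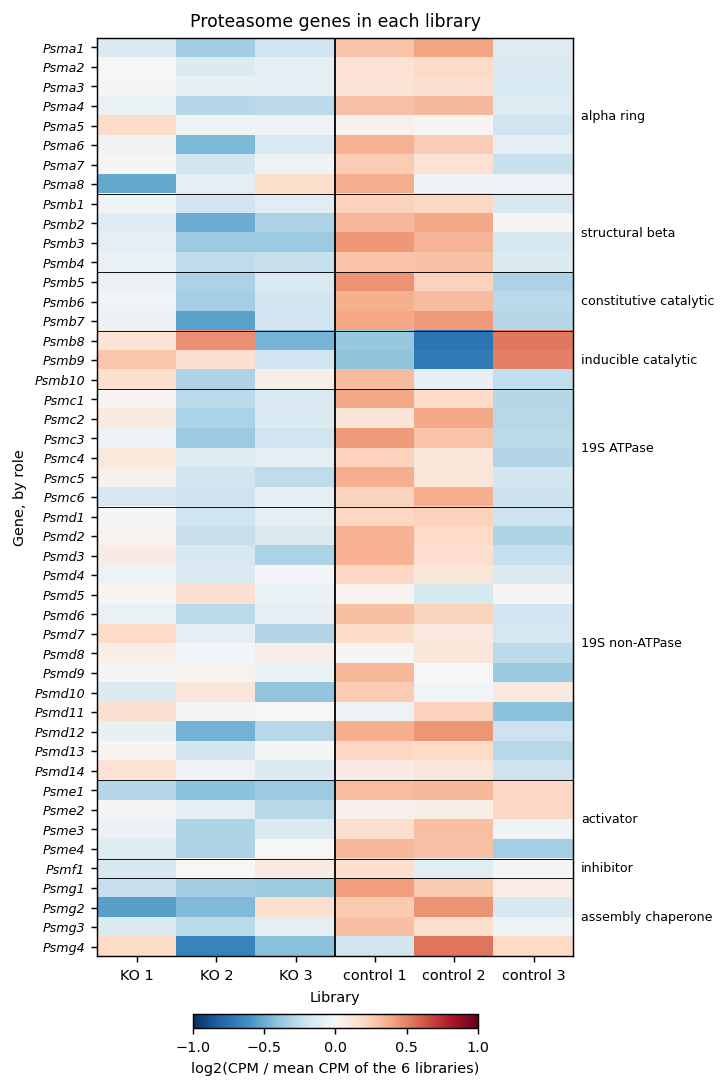
CPM of each of the 47 proteasome genes in each library relative to its mean over the 6 libraries (log2 colour scale from -1 to 1), with the libraries labelled KO left of the line and the controls right, and genes grouped by role. Control 1 and control 2 are red for most genes, control 3 resembles the KO columns for most constitutive subunits, and Psmb8 and Psmb9 show the opposite pattern in the control columns.

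The 6 ATPases of the 19S base all had lower fitted levels in KO, and none passed the test. Psmc3 lay at one end, with 182, 147 and 165 CPM in KO 1 to 3 against 254, 230 and 157 CPM in control 1 to 3 (log2 fold change -0.37, SE 0.20). Psmc4 lay at the other, with 99.7, 84.6 and 86.7 CPM in KO 1 to 3 against 108, 99.97 and 75.7 CPM in control 1 to 3 (log2 fold change -0.07, SE 0.16). In both genes control 3 overlapped the KO libraries or lay below them.

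Of the 14 non-ATPase members, 11 had a lower and 3 a higher fitted level, and none passed. Psmd12, a lid subunit, had 74.1, 56.3 and 64.2 CPM in KO 1 to 3, against 99.9, 106 and 67.5 CPM in control 1 to 3 (log2 fold change -0.49, SE 0.20, edgeR quasi-likelihood adjusted p = 0.179). Psmd11, another lid subunit, had 49.8, 44.0 and 44.6 CPM in KO 1 to 3, against 43.0, 52.1 and 33.6 CPM in control 1 to 3 (log2 fold change 0.10, SE 0.17). Both genes overlapped between genotypes. Psmd14, the deubiquitinase of the lid, had a log2 fold change of -0.01 (SE 0.14), and Psmd4, a ubiquitin receptor, one of -0.14 (SE 0.13).

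The 4 assembly chaperones, which build the 20S core and are not part of the finished particle, all had lower fitted levels, and none passed. Psmg1 had 10.1, 9.27 and 9.20 CPM in KO 1 to 3, against 15.8, 14.1 and 12.4 CPM in control 1 to 3, without overlap (log2 fold change -0.57, SE 0.16, edgeR quasi-likelihood adjusted p = 0.0918). Psmg3 was lower still in level, at 5.15, 4.76 and 5.33 CPM in KO 1 to 3 against 7.02, 6.41 and 5.56 CPM in control 1 to 3 (log2 fold change -0.32, SE 0.21). Its groups did not overlap either, by a margin of a fraction of 1 CPM between KO 3 and control 3.

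In all, 7 of the 47 members (14.9%) had every library labelled KO below every control library, against 14.5% of all genes tested. They were Psma1, Psmb2, Psme1, Psme2, Psme3, Psmg1 and Psmg3. No member had every library labelled KO above every control, against 16.4% of all genes.

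For most members control 1 and control 2 lay close together and control 3 lay below them. Control 3 was the lowest control for 40 of the 47 members (85.1%), against 44.3% of all genes tested, and lay within the range of the KO libraries for 21 (44.7%, against 37.5% of all genes). The coefficient of variation was wider in control than in KO for 39 of the 47 members (83%), against 66.9% of all genes. Its median over the members was 9.31% in KO and 17.4% in control, against 14.3% and 19.1% over all genes tested. With control 3 left out, 15 members fell (31.9%) and 0 rose by edgeR's quasi-likelihood test, when 12.9% of all genes fell and 11.6% rose. The 15 were Psma1, Psma4, Psma6, Psmb2 to Psmb7, Psmc3, Psmc6, Psmd6, Psmd12, Psme1 and Psmg1, and 9 of them are among the 14 constitutive 20S subunits. With control 1 and control 2 left out instead, which leaves control 3 alone, 19 of 47 members had a lower fitted level. Their median log2 fold change was then 0.06. Without the library labelled KO 1 no member passed edgeR's test, when 0.597% of all genes passed in either direction. In that fit 5 members had an unadjusted p under 0.05, and the median log2 fold change of the members was -0.29. Summed cardiomyocyte markers were likewise lower in control 3 than in the other controls, and summed fibroblast markers were higher in every library labelled KO than in any control, as given above, and their part in these differences was not tested.

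**Figure D4:**
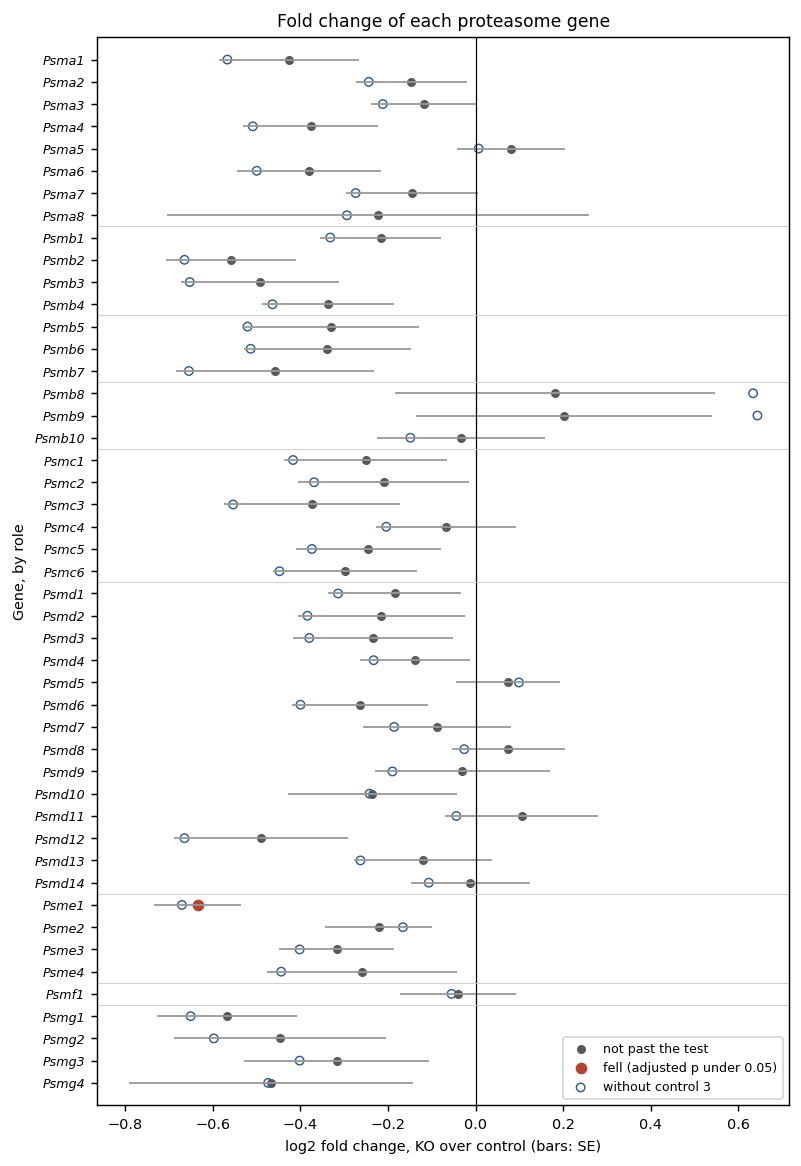
Log2 fold change of each proteasome gene, KO over control, with SE (filled points, 3 libraries each), and the value without control 3 (open points). Psme1 (red, -0.64) passed the test with all libraries, and leaving out control 3 moved most constitutive genes further below 0 and Psmb8 and Psmb9 further above it.

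None of the 3 inducible catalytic subunits passed the test, and for Psmb8 and Psmb9 control 3 was the highest control, where it was the lowest for their constitutive counterparts. Psmb8 and Psmb9 lie within the MHC region of chromosome 17 (34198195 to 34201454 and 34182099 to 34187330, mm10), beside the peptide transporter genes. Psmb8, the inducible counterpart of Psmb5, had 32.1, 40.3 and 21.3 CPM in KO 1 to 3, against 22.6, 17.7 and 42.2 CPM in control 1 to 3. Control 3 was its highest library (log2 fold change 0.18, SE 0.37, edgeR quasi-likelihood adjusted p = 0.791). Psmb9, the counterpart of Psmb6, had 11.4, 10.6 and 8.29 CPM in KO 1 to 3, against 7.16, 5.78 and 13.4 CPM in control 1 to 3, and again control 3 was highest (log2 fold change 0.20, SE 0.34, edgeR adjusted p = 0.745). Psmb10, the counterpart of Psmb7, had 49.7, 36.1 and 46.3 CPM in KO 1 to 3, against 55.6, 42.1 and 37.6 CPM in control 1 to 3, overlapping throughout (log2 fold change -0.03, SE 0.19). Psmb8, Psmb9 and Psme2 were the 3 members whose highest control was control 3, which also had the highest summed leukocyte markers of the 6 libraries, and the part of leukocyte RNA in these levels was not tested.

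Since an inducible subunit takes the place of its constitutive counterpart, their ratio within a library was compared, as reads per base of transcript, which needs no scaling between libraries. Psmb8 over Psmb5 was 0.403, 0.6 and 0.283 in KO 1 to 3, against 0.198, 0.180 and 0.630 in control 1 to 3. Control 3 exceeded all others and the groups overlapped (difference of mean log2 ratio 0.54, exact two-sided permutation p = 0.5, adjusted over the 3 pairs 0.5). Psmb9 over Psmb6 was 0.136, 0.157 and 0.110 in KO 1 to 3, against 0.0653, 0.0542 and 0.188 in control 1 to 3, with the same arrangement (difference 0.60, exact permutation p = 0.4, adjusted 0.5).

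Psmb10 over Psmb7 was 0.280, 0.284 and 0.287 in KO 1 to 3, against 0.230, 0.169 and 0.248 in control 1 to 3. Here every library labelled KO lay above every control, control 3 included (difference 0.41, exact two-sided permutation p = 0.1, adjusted 0.3). With 3 libraries against 3 there are 20 assignments and 0.1 is the smallest p that they allow, so no pair could pass 0.05. The means of this ratio were 0.283 ± 0.00343 in KO and 0.216 ± 0.0415 in control (SD, n = 3 libraries each). Leaving out 1 library at a time kept the differences of all 3 pairs above 0, from 0.21 to 1.12 for Psmb8 over Psmb5, from 0.26 to 1.16 for Psmb9 over Psmb6 and from 0.24 to 0.52 for Psmb10 over Psmb7. The upper end of each range came without control 3. The lower end came without control 2, and for Psmb8 over Psmb5 the value without KO 2 was 0.26 and that without control 1 was 0.28. For Psmb8 over Psmb5 (0.630) and Psmb9 over Psmb6 (0.188) control 3 lay above every library labelled KO. The signs of those differences thus rest on control 1 and control 2. The 3 inducible subunits made up 20.4%, 23.8% and 18.5% of the summed FPKM of all 6 catalytic subunits in KO 1 to 3, against 14.5%, 11.8% and 23.5% in control 1 to 3.

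**Figure D5:**
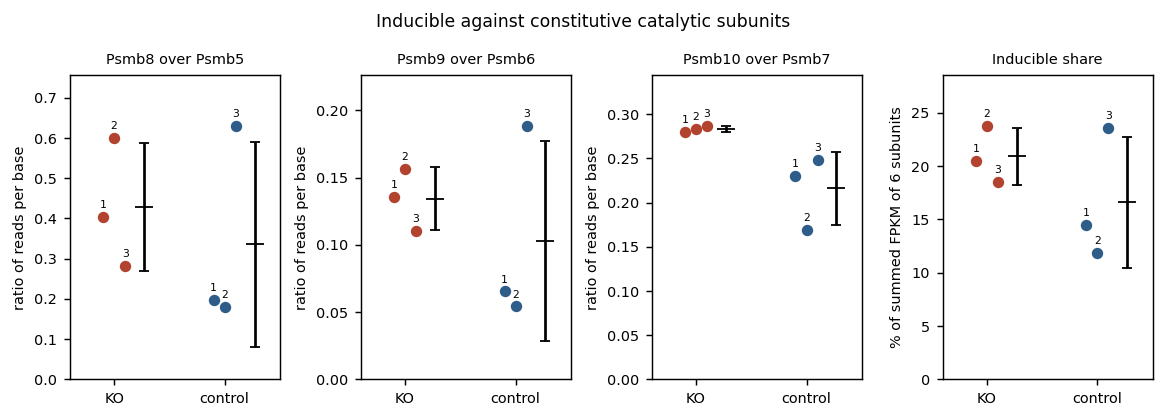
Ratio of inducible to constitutive catalytic subunit (reads per base of transcript) for 3 pairs, and the inducible share of the summed FPKM of the 6 catalytic subunits, in each library labelled KO (red, left) and control (blue, right), with library numbers and mean ± SD at the side. Control 3 is the highest control in all 4 panels, and only for Psmb10 over Psmb7 do the genotypes separate (0.280 to 0.287 in KO, 0.169 to 0.248 in control).

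Genes that act with the proteasome were read the same way, from lists in which no gene passed edgeR's test in either direction. Of 16 partners tested, such as shuttle factors, deubiquitinases and the core assembly factor Pomp, 13 had a lower fitted level, with a median log2 fold change of -0.20, and 4 (25%) had an unadjusted p under 0.05, against 25.9% of all genes tested. Ubqln4, which carries ubiquitinated proteins to the 19S cap, had 67.5, 54.6 and 70.6 CPM in KO 1 to 3, against 112, 93.0 and 72.0 CPM in control 1 to 3 (log2 fold change -0.53, SE 0.19). AI314180, now named Ecpas, encodes a proteasome scaffold and had 301, 229 and 313 CPM in KO 1 to 3, against 430.4, 434 and 315 CPM in control 1 to 3 (log2 fold change -0.48, SE 0.19). Neither gene overlapped between genotypes, and control 3 lay next to KO 3 in both. The 17 genes of ubiquitin and its activation had a median of -0.27, 2 of them (11.8%, against 25.9% of all genes) at an unadjusted p under 0.05, and were led by the conjugating enzymes Cdc34 (log2 fold change -0.68, SE 0.25) and Ube2b (-0.59, SE 0.22).

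The 18 muscle ubiquitin ligases had a median log2 fold change of -0.33, with 7 (38.9%, against 25.9% of all genes) at an unadjusted p under 0.05. Asb2, a substrate receptor of a muscle ligase, had 363, 234 and 340 CPM in KO 1 to 3, against 726, 689 and 400 CPM in control 1 to 3 (log2 fold change -0.95, SE 0.28, edgeR quasi-likelihood adjusted p = 0.0969). Trim63, the MuRF1 ligase of the sarcomere, had 111, 75.2 and 124 CPM in KO 1 to 3, against 217, 196 and 111 CPM in control 1 to 3 (log2 fold change -0.76, SE 0.29). Control 3 stood closest to the KO libraries for Asb2 and within their range for Trim63.

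The 15 regulators of proteasome genes had a median log2 fold change of 0.13, with 2 (13.3%, against 25.9% of all genes) at an unadjusted p under 0.05. Maff, a small partner of the Nrf factors, had a log2 fold change of 0.67 (SE 0.29), and Nfyc, a subunit of the factor that binds CCAAT boxes, one of -0.58 (SE 0.17, adjusted p = 0.0995 by edgeR's quasi-likelihood test). Nfyc stood at 28.8, 25.4 and 26.7 CPM in KO 1 to 3, below its 41.9, 47.8 and 31.2 CPM in control 1 to 3.

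The interferon and MHC class I list, 29 genes tested of 30, had a median of 0.15, with 4 genes (13.8%, against 25.9% of all genes) at an unadjusted p under 0.05. Pdia3, a chaperone of peptide loading, had 319, 292 and 228 CPM in KO 1 to 3, against 146, 178 and 244 CPM in control 1 to 3 (log2 fold change 0.56, SE 0.22). Ifngr2, a chain of the interferon gamma receptor, had 160, 142 and 189 CPM in KO 1 to 3, against 278, 266 and 172 CPM in control 1 to 3 (log2 fold change -0.55, SE 0.22). Without control 3, 7 genes of this list rose and 1 fell by edgeR's test, when 11.6% of all genes rose and 12.9% fell. In that fit 6 partners, 5 genes of ubiquitin and its activation and 8 muscle ligases fell, and no gene of those lists rose. Of the regulators, 1 rose and 4 fell. The summed level of the interferon and MHC class I list was 4405, 4407 and 3835 CPM in KO 1 to 3. In control 1 to 3 it was 3473, 3328 and 5056 CPM, so control 3 was highest here as it was for Psmb8 and Psmb9.

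Transcripts were read only where RefSeq lists several for a gene, and the sources used here do not give how reads were divided between them. Variant 1 of Psma3 took 90.1%, 92.2% and 94.4% of the reads of the gene in KO 1 to 3, against 88.8%, 93.1% and 60.9% in control 1 to 3, so control 3 stood alone. Variant 1 of Psmg4 took 67.5%, 68.7% and 39.1% in KO 1 to 3, against 38.0%, 42.9% and 45.5% in control 1 to 3, and KO 3 lay among the controls. For Psme2, variant 2 took 1.83%, 2.01% and 2.98% in KO 1 to 3, against 5.66%, 8.14% and 3.84% in control 1 to 3, with every KO library below every control. These shares were chosen after the values were seen and carry no test.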

How the data were processed

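Total RNA of remote LV was made into libraries with a stranded kit (labels' protocols). The submitters' processing notes name HISAT2, Bowtie2 and mm10, without roles. How reads were counted, whether by strand and how shared reads were treated, is not stated in those sources. A whole-number read count and an FPKM value per transcript and library were deposited by the authors. Columns whose names show the genotype were mapped to it.

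Counts were summed per symbol and tested with edgeR 4.0.16 in R 4.3.3 (TMM, filterByExpr, quasi-likelihood test, Benjamini-Hochberg adjustment, threshold 0.05), without covariates. "Rose" and "fell" mean past this threshold, and log2 fold changes are KO over control. CPM used effective library sizes, and FPKM summed per symbol was used to compare genes. Catalytic ratios were tested by exact permutation of libraries. Libraries of a genotype differed by more than counting error (median chi-square 3.98 to 20.2, against 0.455 for counting error alone). This does not show whether they came from different animals. Members and lists were chosen with earlier results of these data known. Named genes were those past the test, all catalytic subunits and activators, the largest and smallest log2 fold change per role, and the 2 largest absolute values per list at a mean of at least 5 CPM. Psmd4, Psmd9, Psmd10, Psmd14 and the transcript shares were added after the values were seen. In the lists, Shfm1 and AI314180 are the table's names for Sem1 and Ecpas, and 16 of 17 partners were found. A further gene is not reported here. The test was checked on simulated counts. Alternatives were other scalings and filters, DESeq2 1.42.0, limma 3.58.1 on log2(FPKM + 1), single transcripts, a block for library number and left-out libraries.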

Additional observations from a re-analysis of the deposited data

How the results depend on the processing

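No proteasome gene rose under any alternative run, and Psme1 was the single faller under every other scaling, filter and limma on FPKM, and with single transcripts. DESeq2's Wald test gave 3 fallers (Psmb2, Psme1 and Psmg1). That test called 15.5% of all genes in either direction, against 3.7% with edgeR's test on all libraries. Fallers ran from 0 to 15 when 1 library was left out, the 15 without control 3, when 24.6% of all genes passed in either direction. Without any other single library 0 members fell, and between 0.0204% and 0.597% of all genes passed. With both control 1 and control 2 left out, which leaves control 3 alone, the Psme1 log2 fold change was -0.55. It was -0.59 without KO 1, control 1 and control 2, the libraries with the most Myl7, Sln and Myl4. This last alternative was chosen after seeing the data. Deviations of same-numbered libraries from their group means had correlations of 0.29, -0.30 and -0.34 for numbers 1 to 3. With 3 libraries a genotype these values cannot settle whether the numbers pair the libraries. With the library number as a replicate block 0 members fell, when 0.0415% of all genes passed in either direction. Psme1 kept a log2 fold change of -0.635 there (edgeR adjusted p = 0.152). Scaling by library total alone moved the median log2 fold change of all genes to 0.11 and that of the members to -0.13.

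Signs of single genes turned as follows, none past the test, and the cause was not tested. Without control 1 and control 2 the log2 fold changes were 0.152 for Psmb5, 0.101 for Psmb6, 0.047 for Psmb7, -0.427 for Psmb8, -0.396 for Psmb9, 0.236 for Psmb10, 0.214 for Psme4, 0.054 for Psmb1, 0.081 for Psmc3 and 0.264 for Psmc4. Without KO 1, control 1 and control 2 they were 0.092 for Psmb5, 0.013 for Psmb6 and Psmb1, -0.450 for Psmb8, -0.497 for Psmb9, 0.136 for Psmb10, 0.203 for Psme4, 0.183 for Psmc4 and 0.060 for Psmf1. With library total alone they were 0.075 for Psmb10, 0.049 for Psmc4 and 0.063 for Psmf1, and with limma on log2(FPKM + 1) 0.073, 0.047 and 0.056 for the same genes. With 1 library left out, values ran from -0.053 to 0.634 for Psmb8, -0.024 to 0.644 for Psmb9, -0.149 to 0.146 for Psmb10, -0.204 to 0.041 for Psmc4, -0.044 to 0.269 for Psmd11 and -0.104 to 0.040 for Psmf1. For the members with few reads, such as Psma8 and Psmg3, depth limits the precision, and 3 libraries a genotype limit it for all.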

Other observations

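Genes whose symbols begin with Psm but fall outside the name pattern were also in the table. Psme2b, a copy of the PA28 beta gene whose reads may be shared with Psme2, had 5.18, 5.15 and 4.27 CPM in KO 1 to 3 and 4.42, 2.94 and 7.18 CPM in control 1 to 3 (log2 fold change 0.01, SE 0.36). Control 3 was its highest library. Psmc3ip, a recombination factor named for binding Psmc3, had 2.04, 2.02 and 2.67 CPM in KO 1 to 3 and 3.14, 3.08 and 2.11 CPM in control 1 to 3 (log2 fold change -0.31, SE 0.34).

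Psmb8 and Psmb9, which both lie in the MHC region of chromosome 17, kept a near constant ratio in the controls. The FPKM of Psmb8 was 1.85, 2.51 and 1.70 times that of Psmb9 in KO 1 to 3 and 2.08, 2.02 and 2.08 times in control 1 to 3. The ratio in KO 2 was thus above those of all other libraries. KO 2 also had the highest summed macrophage and dendritic cell markers, at 2175 and 69.5 CPM. Of that macrophage sum Lyz2 gave 1345 CPM, while Cd163 of the same list was lower in every library labelled KO than in any control. Control 1 and control 3, with like ratios, had macrophage sums of 563 and 1722 CPM, and a link between ratio and markers was not tested. A non-coding transcript of Psmd2, variant 2, held 117 reads in the library labelled KO 1 and 3 to 7 reads in each of the others.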
